A study of Danio rerio with 12 samples.

Results

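Arginine can be turned into ornithine and then into the polyamines, and 8 zebrafish genes of that route were followed here in larval neutrophils: arg1, arg2, odc1, azin1b, amd1, srm, sms and smox. They were taken by symbol from a table of 31263 zebrafish and transgene entries. All 8 were listed, and 7 of them passed the filter on low counts that 8453 entries passed; arg1 had no count in any library. The genes were chosen by pathway and by measured values, since earlier results of these data, arg2 higher and sms lower after injury, were known. Differences between injured and uninjured larvae are therefore given for these genes as a description, with no p-value printed. The same fit gave their injury intervals and calls, which likewise only describe them. For these genes, only the effects of the inhibitor and its interaction with injury are reported as tests.

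Arginase splits arginine into urea and ornithine, in the cytosol for arg1 and in mitochondria for arg2. Ornithine decarboxylase makes putrescine, which is then extended to spermidine and spermine by aminopropyl groups that come from decarboxylated S-adenosylmethionine. Polyamines bind nucleic acids and are needed for growth and translation, and arginase in myeloid cells is known for competing with nitric oxide synthase for arginine. In zebrafish larvae, arg2 is known as an arginase gene active in neutrophils and used as a marker of an anti-inflammatory state of leukocytes.

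The cells were GFP-positive cells sorted from larvae carrying mpx:GFP, a transgene in which the promoter of the neutrophil myeloperoxidase gene drives GFP. No other allele is given in the labels. The spinal cord was cut at 3 days post-fertilization or left intact. In the AMD3100 groups they were kept from 4 to 8 hours post-injury in 25 uM AMD3100, a small-molecule blocker of the chemokine receptor Cxcr4, with 0.1% DMSO, while the concentration in the DMSO groups was not given in the sources used here. Injured and uninjured larvae under DMSO and under AMD3100 made 4 groups, each of 3 libraries labelled as biological replicates. Injured libraries of both arms are labelled 8 hours post-injury, so every injury difference is from a single time point. The piece of trunk around the lesion, or its counterpart in uninjured larvae of the same age, was dissociated whole, so cells that carry the marker anywhere in it entered the sort. The number of larvae per library was also not given.

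Libraries held from 655451 to 12173133 counts. The shallowest, injured AMD3100 replicate 1, held ERCC spike-ins at 436 CPM, against 57.0 to 159 in the other 11. The injury difference in AMD3100 is therefore also given without it for each of the 7 genes. Other results that rest on this library are given without it only where stated. The sorted cells carried neutrophil genes in every group: 15 entries for 14 of 15 listed neutrophil markers summed to between 22460 and 59790 CPM in all 12 libraries. Levels are given as CPM, read counts scaled to a common library total and by TMM factors, so that libraries of different depth and composition can be compared. Spike-in levels and the limits that a count of 0 allows were scaled by library total alone, without TMM factors. Of 17 macrophage markers, mfap4, grn1 and grn2 were at 0 in every library, and mpeg1.1, a perforin-type gene used as a macrophage marker, averaged 3.38 to 9.33 CPM by group. The most abundant of the 17, lygl1, averaged 169 CPM over all libraries. A count of 0 need not mean that a gene is silent. The muscle genes pvalb2 and pvalb3 also held 0 counts, beside 13336 for pvalb1. Entries that join a gene with a neighbour were left out of all marker sums. Muscle transcripts were present in every library: 22 entries summed to 1954 to 21970 CPM without and 763 to 9157 with injury under DMSO, and to 12660 to 46960 and 1264 to 12860 under AMD3100. Of 18 muscle genes tested, 2 fell with injury in each arm, with medians of -0.97 and -2.42 on the log2 scale. The 14 erythroid entries summed to 58.2 to 426 CPM without and 26.4 to 36.2 with injury under DMSO, where 3 of 11 tested fell, and to 13.8 to 141 and 35.1 to 183 under AMD3100, where 1 rose. The 14 epidermal entries summed to 254 to 577 CPM without and 344 to 670 with injury under DMSO. Under AMD3100 they summed to 270.5 to 628 and 328 to 620. Of 12 epidermal genes tested, 2 rose and 0 fell with injury in DMSO, and 0 passed in AMD3100, with medians of 0.59 and 0.03. Beside these counts, 2.86% of all 8453 entries rose and 2.33% fell with injury in DMSO. In AMD3100 3% rose and 2.41% fell. Between AMD3100 and DMSO, no muscle or erythroid gene passed, beside 0.0118% of all entries in uninjured and 0% in injured larvae. The muscle median was 1.45 in uninjured (16 of 18 positive) and 0.03 in injured larvae (9 of 18). The erythroid median was -1.06 in uninjured (2 of 11 positive) and 2.4 in injured larvae (10 of 11). Over all entries the medians were 0.029 and -0.004. The part of muscle, erythroid, epidermal and other cells in the injury, inhibitor and interaction values of the 7 genes was not tested.

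**Figure D1:**
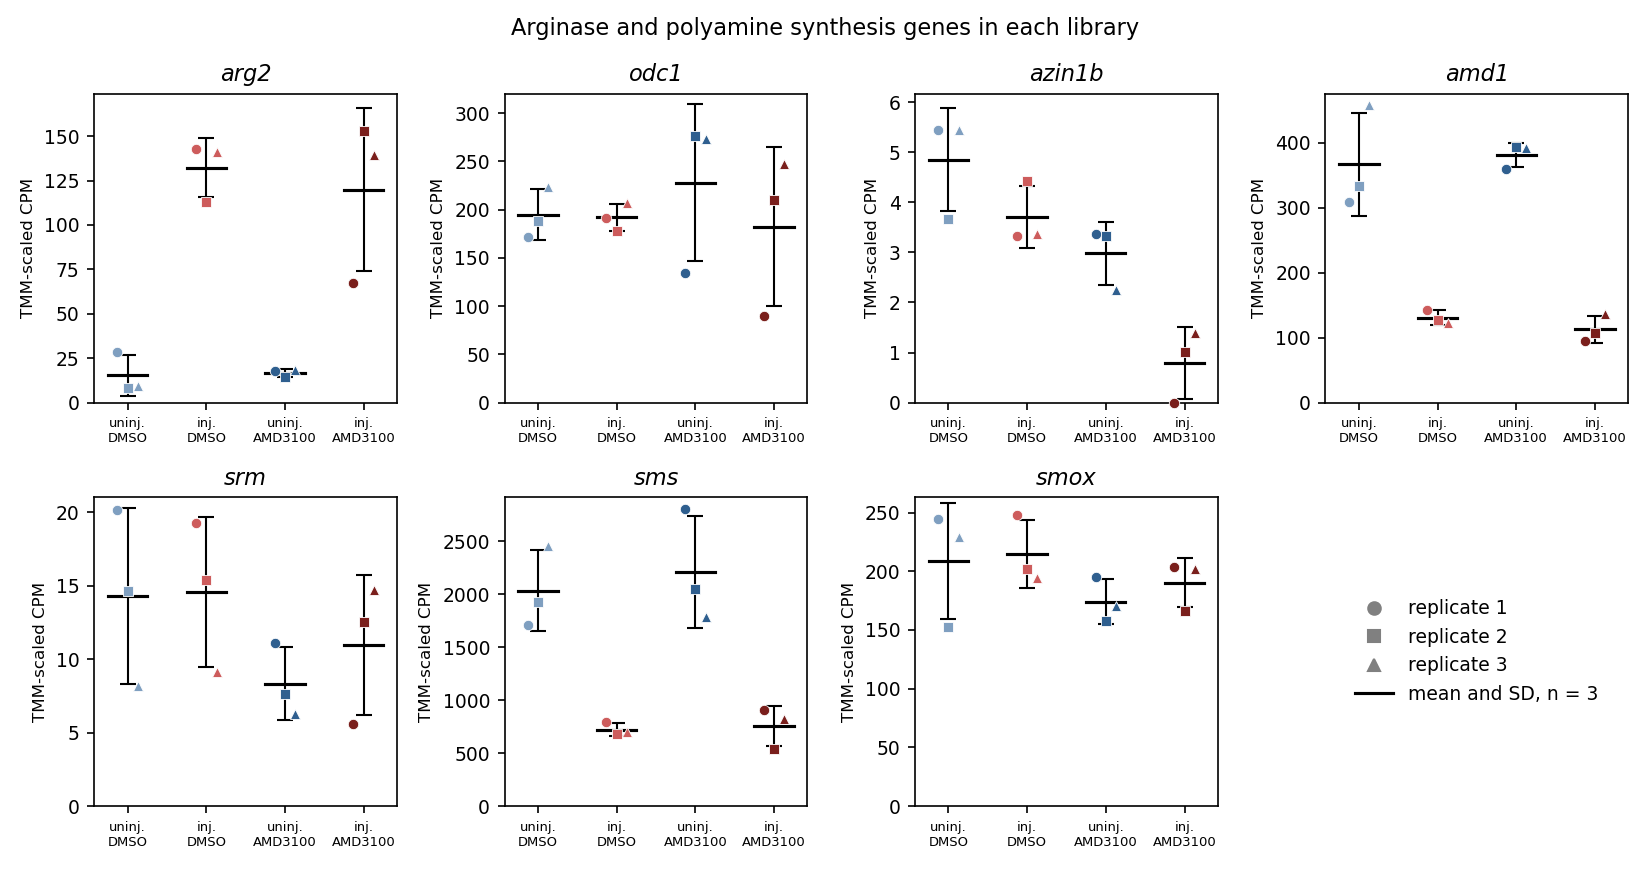
Level of the 7 measured genes in each library, as CPM scaled by TMM factors on linear axes from 0, with one symbol per replicate and the mean and SD of 3 libraries in black. The arg2 libraries of injured larvae sit at 67.3 to 153 CPM, above all uninjured ones at 8.06 to 28.3, while sms and amd1 lie lower in all injured libraries.

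At the first step, the mitochondrial arginase arg2 (ENSDARG00000039269) was scarce in uninjured larvae and several times more abundant after injury, while the cytosolic arginase arg1 was not detected. In uninjured DMSO replicates 1 to 3, arg2 stood at 28.3, 8.06 and 9.45 CPM, and in injured DMSO at 143, 113 and 141. In uninjured AMD3100 replicates 1 to 3 it stood at 17.9, 14.3 and 18.5 CPM, and in injured AMD3100 at 67.3, 153 and 139. Every injured library lay above every uninjured one, and the lowest injured value came from the shallowest library. The log2 fold change of arg2 with injury was 3.13 (SE 0.438) in DMSO and 2.85 (SE 0.422) in AMD3100, which is 8.77-fold and 7.24-fold. Without injured AMD3100 replicate 1 the second value was 3.14 (SE 0.386). Without uninjured DMSO replicate 1, the highest of the uninjured libraries, the first was 3.90. Of 8453 tested entries, 60 had a larger log2 fold change than arg2 in DMSO and 43 in AMD3100. In RNA from sorted pools, a change in the make-up of the sorted cells and a change in RNA per cell cannot be told apart.

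The order of the arg2 group means was injured DMSO (132 ± 16.7 CPM, SD, n = 3), injured AMD3100 (120 ± 46.1), uninjured AMD3100 (16.9 ± 2.27) and uninjured DMSO (15.3 ± 11.3). The 2 injured groups overlapped each other, as did the 2 uninjured groups. In the edgeR quasi-likelihood test, arg2 differed between AMD3100 and DMSO by -0.12 on the log2 scale in injured larvae (95% interval -0.95 to 0.71, adjusted p = 0.997). In uninjured larvae it differed by 0.16 (interval -0.75 to 1.07, adjusted p = 0.999). The interaction, the injury difference in AMD3100 minus that in DMSO, was -0.28 (interval -1.51 to 0.95, adjusted p = 1). Effects of the inhibitor on arg2 that lie inside these intervals remain compatible with the data. The intervals are not limits of detection.

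Reads of arg1 (ENSDARG00000057429), the arginase of the hepatic urea cycle in mammals, numbered 0 in all 12 libraries, of 66507094 counts in all. A count of 0 allows up to 3 reads, which is 0.246 to 4.58 CPM in a single library and 0.0451 CPM over all of them. The 2 entries that join arg1 with an overlapping neighbour, heatr1 or nudt13, also held no count. The hepatocyte markers of the trunk sort stayed at 5.99 to 36.4 CPM, summed over 10 genes.

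The macrophage markers were compared with arg2 because macrophages can express arginase. Their sum ran from 63.0 to 174 CPM in uninjured DMSO and from 179 to 385 in injured DMSO. It ran from 85.6 to 169 CPM in uninjured AMD3100 and from 99.5 to 504 in injured AMD3100, so it was higher after injury in DMSO without overlap. Most of this sum was 1 gene, lygl1, a lysozyme g-like gene, whose means in uninjured and injured larvae were 72.2 and 263 CPM under DMSO and 75.4 and 266 under AMD3100. Without lygl1 the remaining 16 markers summed to 28.6 to 69.1 CPM in uninjured DMSO and 25.3 to 38.6 in injured DMSO. In AMD3100 they summed to 40.1 to 74.3 uninjured and 32.2 to 51.1 injured. Of 9 macrophage markers tested by edgeR, 0 rose and 1 fell with injury in each arm. Over all entries 2.86% rose and 2.33% fell in DMSO, and 3% rose and 2.41% fell in AMD3100. Their log2 fold change was positive for 3 of 9 in DMSO and 4 of 9 in AMD3100. The medians were -1.45 and -0.62, beside -0.03 and -0.07 over all entries. Single markers went both ways: mpeg1.1 averaged 9.33 CPM in uninjured and 3.38 in injured DMSO, and the scavenger receptor marco averaged 2.55 and 4.81. In AMD3100 mpeg1.1 averaged 8.83 uninjured and 6.25 injured, and marco 5.75 and 12.5. The part of other cells in the arg2 difference was not tested.

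At the second step, ornithine decarboxylase odc1 (ENSDARG00000007377), the enzyme that commits ornithine to polyamines, showed no difference of the size seen for arg2. In uninjured DMSO replicates 1 to 3, odc1 stood at 172, 188 and 224 CPM, and in injured DMSO at 191, 178 and 206. In uninjured AMD3100 it stood at 134, 276 and 273 CPM, and in injured AMD3100 at 89.7, 210 and 248. The groups overlapped in every comparison, and replicate 1 of both AMD3100 groups was the low one. Its log2 fold change with injury was -0.02 (SE 0.349) in DMSO and -0.31 (SE 0.349) in AMD3100, or 0.02 (SE 0.286) without injured AMD3100 replicate 1. AMD3100 minus DMSO for odc1 was -0.06 in injured larvae (interval -0.80 to 0.69, edgeR adjusted p = 0.999) and 0.23 in uninjured larvae (interval -0.52 to 0.97, adjusted p = 0.996). Its interaction was -0.29 (interval -1.34 to 0.77, adjusted p = 1).

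The antizyme inhibitor azin1b (ENSDARG00000035869), of a family that resembles ornithine decarboxylase and frees it from antizyme, was the least counted of the 7 genes, with 205 reads in 12 libraries. Its reads in replicates 1 to 3 under DMSO numbered 10, 5 and 30 without injury and 10, 50 and 21 with it, or 5.44, 3.66 and 5.45 CPM and 3.32, 4.42 and 3.37 CPM. Under AMD3100 they numbered 10, 36 and 9 without injury and 0, 7 and 17 with it, or 3.37, 3.32 and 2.25 CPM and 0, 1.01 and 1.39 CPM. The 3 libraries of injured AMD3100 were the lowest of all 12, without overlap with any other group. AMD3100 minus DMSO for azin1b was -1.76 on the log2 scale in injured larvae (interval -2.96 to -0.56). Its unadjusted p was 0.00689 and its adjusted p over all 8453 entries was 0.901 by edgeR, so it did not pass the threshold of 0.05. In uninjured larvae the difference was -0.72 (interval -1.84 to 0.41, adjusted p = 0.991), and all 3 AMD3100 libraries again lay below the 3 DMSO libraries. The interaction was -1.05 (interval -2.67 to 0.58, adjusted p = 1). In injured AMD3100 replicate 1, the count of 0 allows up to 4.58 CPM, which is above the level of azin1b in most other libraries; without that library the difference in injured larvae was -1.60 (interval -2.72 to -0.49, adjusted p = 1). Its log2 fold change with injury was -0.40 (SE 0.518) in DMSO and -1.45 (SE 0.568) in AMD3100, or -1.27 (SE 0.520) without that library.

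The next genes supply and use the aminopropyl groups. The S-adenosylmethionine decarboxylase amd1 (ENSDARG00000043856), which makes the aminopropyl donor, was lower in all injured libraries. In uninjured DMSO replicates 1 to 3 it stood at 309, 333 and 457 CPM, and in injured DMSO at 143, 127 and 122. In uninjured AMD3100 it stood at 359, 393 and 392 CPM, and in injured AMD3100 at 95.3, 108 and 136. The highest injured library, at 143 CPM, was far below the lowest uninjured one, at 309. The log2 fold change of amd1 with injury was -1.49 (SE 0.246) in DMSO and -1.75 (SE 0.248) in AMD3100, or 2.81-fold and 3.36-fold lower. Without injured AMD3100 replicate 1 the second log2 value was -1.63 (SE 0.238). AMD3100 minus DMSO was -0.20 in injured larvae (interval -0.72 to 0.31, edgeR adjusted p = 0.987) and 0.06 in uninjured larvae (interval -0.46 to 0.57, adjusted p = 0.999). The interaction for amd1 was -0.26 (interval -0.99 to 0.47, adjusted p = 1).

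Spermine synthase sms (ENSDARG00000008155), which turns spermidine into spermine, was lower after injury by a similar factor. In uninjured DMSO replicates 1 to 3, sms stood at 1714, 1928 and 2458 CPM, and in injured DMSO at 790, 678 and 699. In uninjured AMD3100 it stood at 2805, 2046 and 1786 CPM, and in injured AMD3100 at 904, 540 and 827. The highest injured library stayed below the lowest uninjured one in both arms. The log2 fold change of sms with injury was -1.49 (SE 0.277) in DMSO and -1.55 (SE 0.277) in AMD3100, or 2.81-fold and 2.92-fold lower. Without injured AMD3100 replicate 1 the second log2 value was -1.67 (SE 0.272). Under DMSO the means were 2033 ± 383 CPM without and 722 ± 59.3 with injury, and under AMD3100 2212 ± 529 and 757 ± 192 (SD, n = 3). The inhibitor moved sms by 0.07 in injured larvae (interval -0.51 to 0.65, edgeR adjusted p = 0.999) and 0.12 in uninjured larvae (interval -0.46 to 0.70, adjusted p = 0.999), neither beyond the spread. Its interaction was -0.06 (interval -0.87 to 0.76, adjusted p = 1). An entry that joins sms with its overlapping neighbour rfc2 held only 30 reads in all, against 85877 for sms itself.

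Spermidine synthase srm (ENSDARG00000055760), which acts one step before sms, showed no such difference. It stood at 20.1, 14.7 and 8.18 CPM in uninjured DMSO replicates 1 to 3, and at 19.3, 15.4 and 9.13 in injured DMSO. In uninjured AMD3100 it stood at 11.1, 7.65 and 6.25 CPM, and in injured AMD3100 at 5.61, 12.5 and 14.7. The spread within groups was wide, and injured and uninjured libraries overlapped in both arms. Its log2 fold change with injury was 0.05 (SE 0.425) in DMSO and 0.53 (SE 0.426) in AMD3100, or 0.75 (SE 0.413) without injured AMD3100 replicate 1, where srm rested on 4 reads. AMD3100 minus DMSO for srm was -0.28 in injured larvae (interval -1.17 to 0.61, edgeR adjusted p = 0.993) and -0.76 in uninjured larvae (interval -1.68 to 0.17, adjusted p = 0.991). Its interaction was 0.47 (interval -0.81 to 1.75, adjusted p = 1).

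Spermine oxidase smox (ENSDARG00000036967), which turns spermine back into spermidine with release of hydrogen peroxide, overlapped between all groups. In uninjured DMSO replicates 1 to 3, smox stood at 244, 152 and 229 CPM, and in injured DMSO at 248, 202 and 195. In uninjured AMD3100 it stood at 195, 157 and 170 CPM, and in injured AMD3100 at 203, 166 and 202. All 12 libraries lay between 152 and 248 CPM. Its log2 fold change with injury was 0.04 (SE 0.248) in DMSO and 0.13 (SE 0.248) in AMD3100, or 0.10 (SE 0.243) without injured AMD3100 replicate 1. AMD3100 minus DMSO for smox was -0.18 in injured larvae (interval -0.70 to 0.35, edgeR adjusted p = 0.992) and -0.26 in uninjured larvae (interval -0.79 to 0.27, adjusted p = 0.991). Its interaction was 0.09 (interval -0.66 to 0.84, adjusted p = 1).

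**Figure D2:**
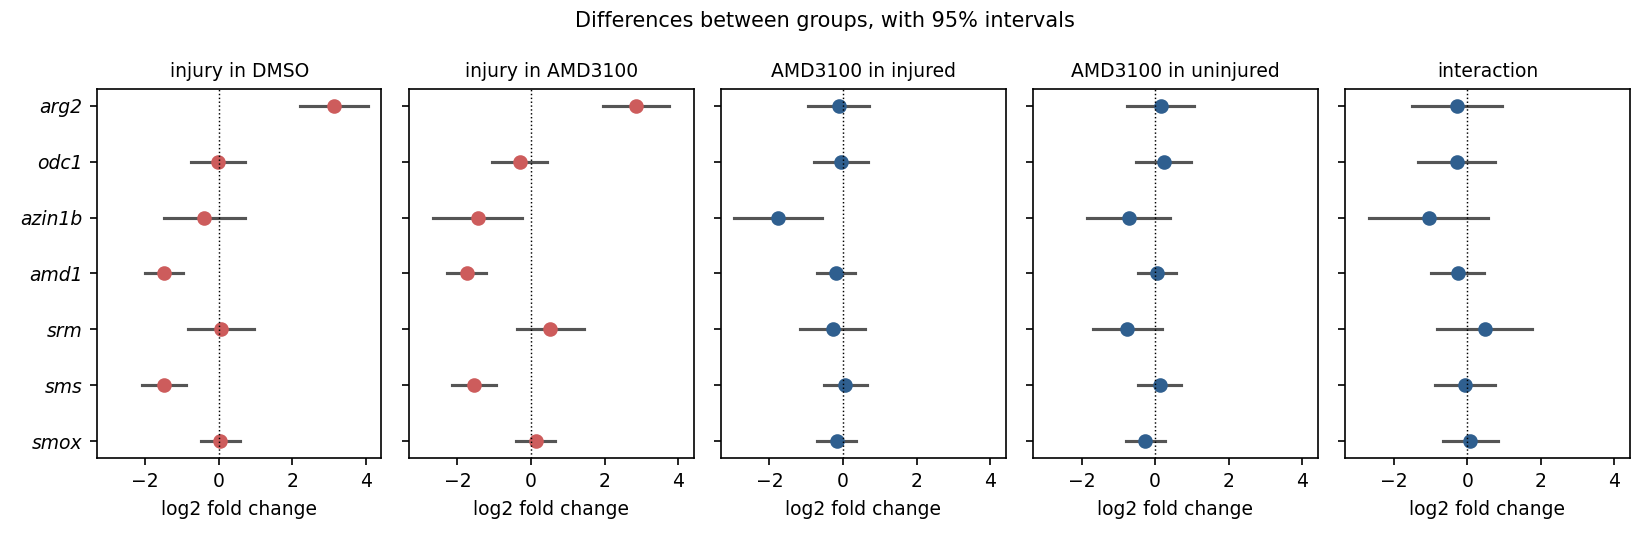
Log2 fold change (points) and 95% interval (lines) of each of the 7 genes in the 5 comparisons, from the edgeR fit to all 12 libraries; injury comparisons are in red and those of the inhibitor and the interaction in blue. With injury, arg2 lies at 3.13 and 2.85 and amd1 and sms between -1.49 and -1.75, while in the blue panels only azin1b in injured larvae, at -1.76, has an interval that leaves out 0.

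Counted over the 7 tested genes, 1 was higher and 2 were lower with injury at an adjusted p under 0.05 in DMSO, where 5.19% of all 8453 entries passed (2.86% higher, 2.33% lower). The same counts held in AMD3100, where 5.42% passed (3% higher, 2.41% lower). Since injury chose the genes, these counts describe them and test nothing. The genes were arg2, amd1 and sms in both arms; in a fit of the 2 AMD3100 groups alone sms was not called. Libraries did not overlap for 3 of the 7 in DMSO, against 29.6% of all entries (15.9% higher, 13.7% lower), and for 4 of the 7 in AMD3100, azin1b being the fourth, against 24.5% (10.5% higher, 14% lower). The 2 injury comparisons share no library, but they share the filter, the scaling and the estimate of the spread over all 12 libraries. They are therefore not independent. For AMD3100 in injured larvae, edgeR called 0 of the 7 (1 at an unadjusted p under 0.05, and 0 by DESeq2) and 0 of all entries (0%; 466 at an unadjusted p under 0.05, and 1 by DESeq2). For AMD3100 in uninjured larvae it called 0 of the 7 (0 at an unadjusted p under 0.05, and 0 by DESeq2), against 0.0118% of all entries. The interaction called 0 of the 7 as well (0 unadjusted and 0 by DESeq2), and 0% of all entries (265 unadjusted and 0 by DESeq2). Libraries of AMD3100 and DMSO did not overlap for 1 of the 7, azin1b, in injured larvae (10.3% of all entries, 4.66% higher and 5.67% lower) and in uninjured larvae (12.9%, 6.91% higher and 6.02% lower). Where injured AMD3100 is compared, the separation of azin1b rests in part on replicate 1. Its count of 0 there allows up to 4.58 CPM, so that separation is uncertain.

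Ratios of reads of 2 genes within a library do not depend on how libraries are scaled, and they showed the same order. They reuse the counts of genes chosen with their injury differences known. They therefore show only that the order does not rest on the scaling, and they test nothing. For each read of odc1 there were 0.0423 to 0.165 reads of arg2 in uninjured DMSO and 0.635 to 0.747 in injured DMSO. In AMD3100 the ratio of arg2 to odc1 was 0.0517 to 0.134 uninjured and 0.562 to 0.750 injured. In this ratio injured AMD3100 replicate 1, low in both genes as CPM, was the highest library of its group. The ratio of amd1 to odc1 was 1.77 to 2.05 in uninjured and 0.591 to 0.748 in injured DMSO, and 1.42 to 2.69 and 0.513 to 1.06 in AMD3100. Reads of spermine synthase per read of spermine oxidase, sms to smox, were 7.02 to 12.7 in uninjured and 3.18 to 3.59 in injured DMSO, and 10.5 to 14.4 and 3.26 to 4.45 in AMD3100. The ratio of sms to amd1 was by contrast 5.37 to 5.79 in uninjured and 5.34 to 5.73 in injured DMSO. In AMD3100 it was 4.56 to 7.81 uninjured and 5.01 to 9.49 injured, with replicate 1 the highest library of both groups.

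**Figure D3:**
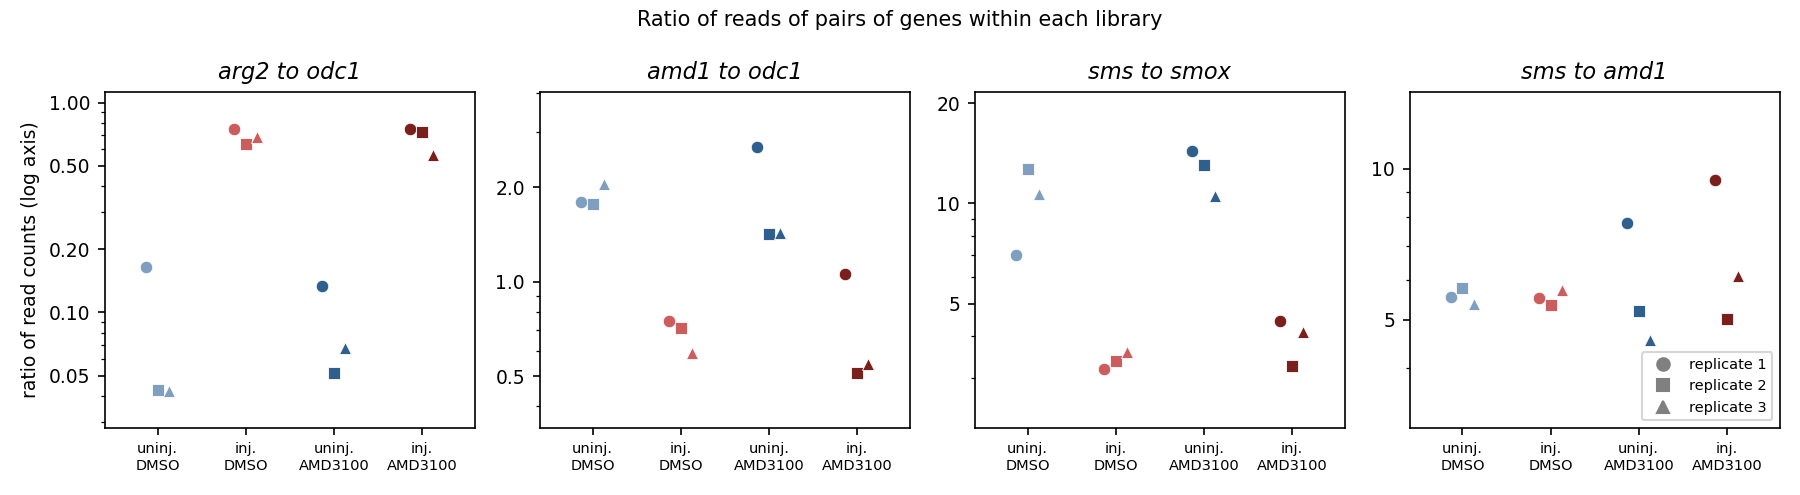
Ratio of the read counts of 2 genes within each library, on log axes, by group and replicate. The ratios of arg2 to odc1, amd1 to odc1 and sms to smox separate injured from uninjured libraries in both arms, while the 6 DMSO libraries lie between 5.34 and 5.79 for sms to amd1.

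The patterns most like those of arg2 and sms over the 12 libraries were sought among 3896 other tested genes with a mean of at least 10 CPM. Likeness was the root mean square difference of log2 CPM after each gene's own mean was subtracted. Differences between groups were left in, so nearness largely restates the injury difference known when arg2 and sms were chosen. It describes the genes and tests nothing. The 5 genes nearest to arg2 were illr4, a lectin-like immune receptor gene (0.473), aif1l, an actin-binding protein (0.500), marcksl1b, a MARCKS-like membrane protein (0.501), hsp90aa1.2, a heat shock protein (0.513), and gng12a, a G protein gamma subunit (0.553). The median over all candidates was 1.63. The level of hsp90aa1.2, for example, was 18.0 ± 8.66 CPM without and 93.3 ± 9.33 with injury under DMSO, and 11.9 ± 1.21 and 76.0 ± 12.9 under AMD3100 (SD, n = 3).

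The 5 genes nearest to sms were nkd1, an inhibitor of Wnt signalling (0.167), ptmaa, a prothymosin (0.200), mpx, the granule myeloperoxidase whose promoter marks the cells (0.220), ctss1, a cathepsin S (0.224), and ppp1r14aa, an inhibitor of protein phosphatase 1 (0.229). The median over all candidates for sms was 0.946. The gene amd1 was the 7th nearest of the 3896, with a difference of 0.276 from sms. As both fell with injury by a similar factor, this rank is no separate result. Of the other polyamine genes, smox ranked 1302nd (0.850), odc1 1491st (0.879) and srm 2750th (1.08), the first 2 nearer to sms than the median candidate and srm farther. The prothymosin gene ptmaa stood at 1007 ± 158 CPM in uninjured and 394 ± 12.8 in injured DMSO. The level of mpx was 3355 ± 762 CPM in uninjured and 1355 ± 359 in injured DMSO, and 3533 ± 773 and 1422 ± 443 in AMD3100. The abundant transcript cpa5, a carboxypeptidase gene known from mast cells and early myeloid cells of zebrafish, was not among these 5. It was named after its values were seen. It stood at 4934 ± 1510 CPM without and 1225 ± 336 with injury under DMSO, and at 4612 ± 997 and 1389 ± 321 under AMD3100. It fell by 2.01 on the log2 scale in DMSO (edgeR adjusted p = 0.00282) and by 1.73 in AMD3100 (adjusted p = 0.00637). Of 2 tested genes of its list, 0 rose and 1 fell in each arm. The other 7 entries of its list of lymphoid and mast cell markers were far lower, gata2a leading them at a mean of 5.70 CPM. The summed neutrophil markers, mpx among them, were also lower after injury: they ran from 39240 to 50440 CPM without and 23940 to 32860 with injury under DMSO, and from 44410 to 59790 and 22460 to 37890 under AMD3100. A few abundant entries carry that sum, led by npsn at a mean of 19510 CPM and lyz at 5123. By entry the list did not move one way: 10 of 15 had a positive log2 fold change with injury in DMSO (median 0.45) and 9 of 15 in AMD3100 (median 0.06), and 2 rose and 2 fell in each arm. Over all entries 2.86% rose and 2.33% fell in DMSO, and 3% rose and 2.41% fell in AMD3100. None of the 15 entries was at 0 in any group. The part of a change in the kind or stage of the sorted cells in the sms and amd1 differences was not tested.

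**Figure D4:**
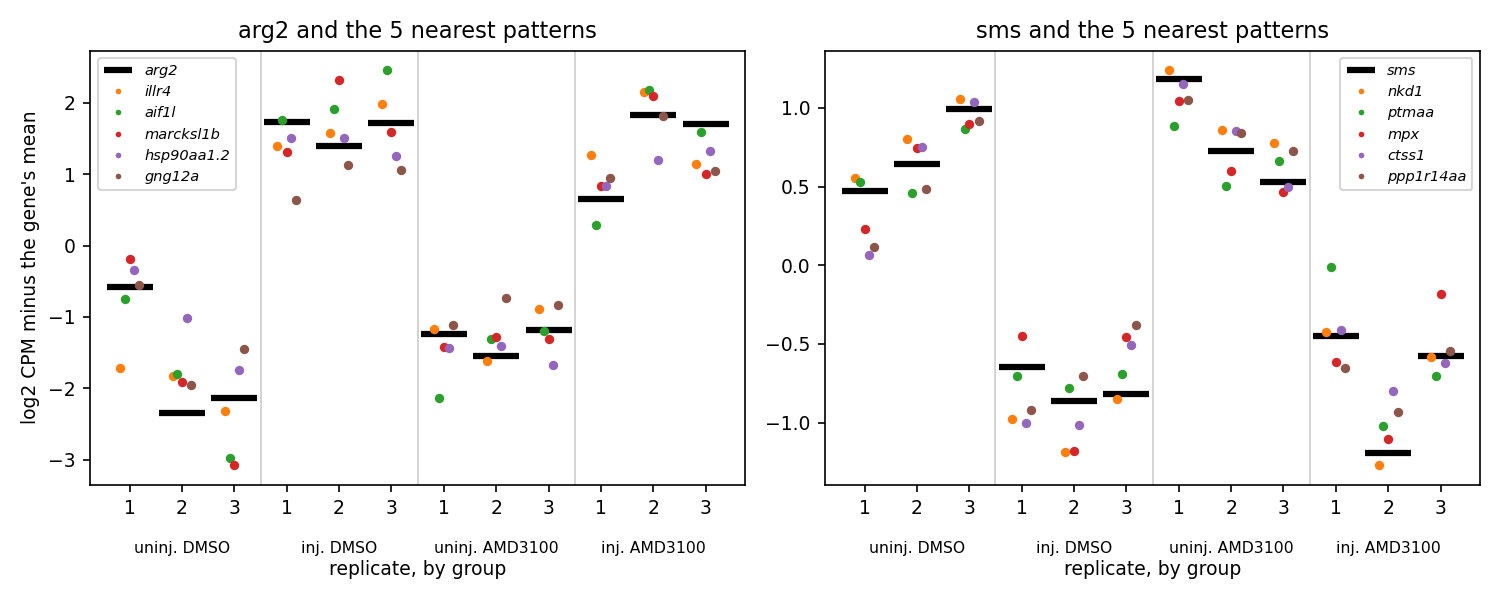
Log2 CPM minus each gene's own mean over 12 libraries, by group and replicate, for arg2 (left, black bars) and sms (right, black bars) and the 5 genes with the nearest patterns (points). All genes on the left lie higher in the injured than in the uninjured libraries and all genes on the right lie lower; replicates have no order.

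Around these enzymes, 5 lists of 117 other genes of the pathway covered arginine and ornithine metabolism, polyamine regulation and transport, the methionine cycle, amino acid transport, and regulators known for arginase or ornithine decarboxylase. Of them, 59 genes were tested. The lists, too, were chosen with earlier results of these data known. Their injury calls and adjusted p-values therefore describe these libraries and are no independent support. With injury in DMSO, 2 rose and 1 fell, which is 5.08% of the 59, close to the 5.19% of all entries. With injury in AMD3100, 4 rose and 1 fell, which is 8.47% against 5.42% of all entries. For AMD3100 in injured larvae, edgeR called 0 of the 59 (3 at an unadjusted p under 0.05, and 0 by DESeq2). For AMD3100 in uninjured larvae and for the interaction it called 0 of the 59 as well (0 unadjusted and 0 by DESeq2 in both). The median log2 fold change of the 59 was -0.35 in DMSO and -0.06 in AMD3100 with injury, beside -0.03 and -0.07 over all entries.

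The genes that passed are taken list by list. Of all 8453 entries, 2.86% rose and 2.33% fell with injury in DMSO, and 3% rose and 2.41% fell in AMD3100. In the list of amino acid transporters, 1 of 8 tested genes rose and 1 fell with injury in DMSO, and 2 rose and 1 fell in AMD3100, with medians of -0.34 and -0.09. The gene slc7a3a, a carrier of cationic amino acids such as arginine and ornithine, fell. It stood at 37.5, 19.0 and 47.1 CPM in uninjured and 8.30, 11.5 and 8.81 in injured DMSO, and at 59.3, 45.2 and 44.5 and 19.6, 9.49 and 14.5 in AMD3100. All injured libraries of slc7a3a lay below the uninjured ones of their own arm. Its log2 fold change was -1.86 in both arms (SE 0.358, adjusted p = 0.00751 in DMSO; SE 0.365, adjusted p = 0.00876 in AMD3100). It was lost without uninjured DMSO replicate 3 in the first arm (adjusted p = 0.0528) and without injured AMD3100 replicate 2 in the second (adjusted p = 0.0529).

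The gene slc7a6, a light chain that exchanges arginine against neutral amino acids in mammals, rose in both arms. It stood at 7.07, 5.13 and 1.64 CPM in uninjured and 19.3, 27.0 and 29.8 in injured DMSO, and at 1.35, 2.40 and 2.25 and 9.81, 20.8 and 23.3 in AMD3100. All injured libraries of slc7a6 lay above all uninjured ones. Some values rest on few reads. In uninjured AMD3100 replicate 1 the level of 1.35 CPM stands beside 1.02 CPM that a count of 0 allows. In injured AMD3100 replicate 1 the level of 9.81 CPM stands beside 4.58. These limits, unlike the levels, were not scaled by TMM factors. The log2 fold changes were 2.62 (SE 0.490, adjusted p = 0.00629) and 3.18 (SE 0.486, adjusted p = 0.00261). Its relative slc7a7 rose by 1.69 in AMD3100 (SE 0.391, adjusted p = 0.0221), and its value of 0.55 in DMSO did not pass (adjusted p = 0.474). The interaction for slc7a7 was 1.13 (SE 0.554, adjusted p = 1), so a difference between the arms was not shown.

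In arginine and ornithine metabolism, 9 of 23 listed genes in the table were tested, none passed in DMSO and 1 rose in AMD3100, with medians of -0.89 and -0.39. That gene was slc25a15a, the mitochondrial carrier that moves ornithine across the inner membrane. It stood at 4.72, 4.24 and 4.25 CPM in uninjured and 12.6, 12.4 and 14.4 in injured AMD3100. Its log2 fold change there was 1.59 (SE 0.367, adjusted p = 0.0220), beside 0.92 in DMSO (adjusted p = 0.175) and an interaction of 0.67 (SE 0.515, adjusted p = 1). The calls of slc25a15a and slc7a7 were lost without any 1 of the uninjured AMD3100 replicates (adjusted p = 0.0546 to 0.104), and that of slc25a15a also without injured AMD3100 replicate 2 (adjusted p = 0.0537). Both were lost in a fit of the 2 groups alone (adjusted p = 0.0580 and 0.0626).

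In the methionine cycle, 1 of 14 tested genes rose in each arm, with medians of 0.06 and 0.13. It was cbsb, a cystathionine beta-synthase, which draws homocysteine from the cycle toward cysteine. It stood at 10.3, 11.7 and 4.18 CPM in uninjured and 59.8, 59.2 and 67.6 in injured DMSO, and at 14.8, 11.6 and 14.0 and 88.3, 85.2 and 66.1 in AMD3100. The lowest injured library of cbsb, at 59.2, was several times the highest uninjured one, at 14.8. The log2 fold changes were 2.93 (SE 0.356, adjusted p = 5.04e-04) and 2.57 (SE 0.332, adjusted p = 0.00113). The next enzyme of that branch, cth, had values of 1.60 and 1.45 that did not pass (adjusted p = 0.202 and 0.236).

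In the list of polyamine regulators, 0 of 16 tested genes passed by edgeR in either arm, with medians of -0.50 in DMSO and 0.18 in AMD3100. The antizyme genes oaz1a and oaz1b, whose products bind ornithine decarboxylase and send it to the proteasome, had log2 fold changes of 0.25 and 0.49 in DMSO (adjusted p = 0.780 and 0.460). In AMD3100 the values were 0.15 for oaz1a and 0.89 for oaz1b (adjusted p = 0.880 and 0.157). The level of oaz1b was 730 ± 102 CPM in uninjured and 1026 ± 162 in injured DMSO, and 651 ± 48.4 and 1212 ± 755 in AMD3100, where injured replicate 1 held the high value of 2083. The third antizyme gene tested, oaz2a, had values of -0.47 and -1.13 (adjusted p = 0.748 and 0.342). The spermidine/spermine acetyltransferase genes sat1a.1 and sat1a.2, which start polyamine breakdown and export, had values of -1.15 and 0.01 in DMSO (adjusted p = 0.299 and 0.985). In AMD3100 they were at -1.25 and 0.48 (adjusted p = 0.280 and 0.377). Among the regulators known for arginase or ornithine decarboxylase, 0 of 12 tested genes passed in either arm, with medians of -0.04 and -0.18.

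**Figure D5:**
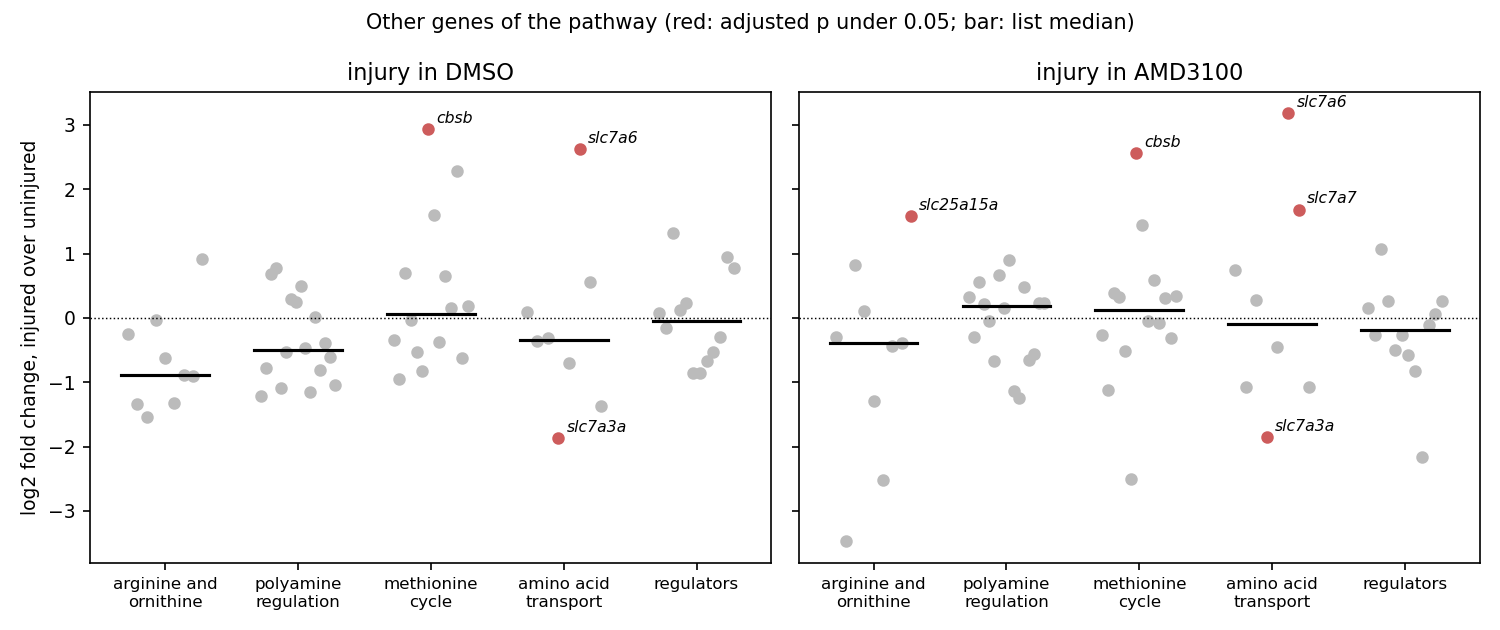
Log2 fold change of the 59 other pathway genes tested, injured over uninjured, in DMSO (left) and AMD3100 (right); each point is a gene, points in red passed the edgeR test at an adjusted p under 0.05 and bars are list medians. In both panels cbsb, slc7a6 and slc7a3a are named, and slc25a15a and slc7a7 are named on the right alone, a difference between the arms that the interaction did not show.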

How the data were processed

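Poly(A) RNA of 2500 to 4800 sorted cells per library was read by an adapted CEL-seq protocol, which counts transcript ends, per the labels' protocols. The authors deposited unnormalized read counts for 31351 entries in 12 libraries; 88 entries were ERCC spike-ins, left out of library sizes and tests. BWA, genome build GRCz11 and DESeq2 1.38 are named in the submitters' processing notes. Not given in the sources used here were their roles and any collapsing of molecular identifiers.

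The main analysis used edgeR 4.0.16 under R 4.3.3: filterByExpr by group (minimum count 10, minimum total 15), TMM factors, and a quasi-likelihood fit with 1 coefficient per group to all 12 libraries. The threshold was 0.05 on p-values adjusted by Benjamini-Hochberg over the 8453 entries tested. SEs were derived from the F statistic, and 95% intervals from its degrees of freedom. The procedure was also run on counts simulated from this fit, with known differences put in. That checks the procedure under its own model and not the calls in these libraries. Libraries held 655451 to 12173133 counts. The floor for a count of 0 was 3 counts, and such limits cover counting error only. The labels call the replicates biological without saying that they came from separate larvae. The p-values therefore set differences of group means against the spread between these samples only. That spread was estimated from all 4 groups together.

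The 8 genes and all lists were chosen with earlier results of these data known. Text names every one of the 8, the pathway genes that passed, the antizyme and acetyltransferase genes, and the 5 nearest patterns of arg2 and sms; cth, cpa5, gata2a, lygl1, lyz, marco, mpeg1.1 and npsn were named after their values were seen. Alternatives were DESeq2 1.42.0, other scalings, no filter, a replicate block, fits of 2 groups alone, leaving out mitochondrial and hemoglobin genes, and leaving out each library.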

Additional observations from a re-analysis of the deposited data

How the results depend on the processing

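With injury, arg2, amd1 and sms were called in DMSO in all 19 alternatives. In AMD3100 arg2 and amd1 were called in all 19 and sms in 18, since in the fit of the 2 groups alone 2 of the 7 were called. The alternatives reuse the same libraries, and the genes were chosen with their injury differences known. These injury calls therefore show only how far the description depends on the processing, and they test nothing. None of the 7 was called for the inhibitor or the interaction by edgeR or DESeq2 in any alternative run. The direction of arg2, amd1 and sms with injury did not turn in any of them. The number of all genes called moved more. Without the low-count filter it was 701 and 714 for injury in DMSO and in AMD3100, 105 and 145 for AMD3100 in injured and in uninjured larvae, and 68 for the interaction. With DESeq2 these counts were 723, 731, 1, 19 and 0. In fits of the groups compared alone they were 722 and 165 for injury, and 0 for AMD3100 in uninjured larvae. The cause was not tested. Leaving out 1 library gave 163 (without uninjured DMSO replicate 3) to 659 (without injured AMD3100 replicate 1) for injury in DMSO, and 119 (without uninjured AMD3100 replicate 2) to 574 for injury in AMD3100. It gave 0 to 72 for AMD3100 in injured larvae, the 72 without injured AMD3100 replicate 3, and 0 to 2 for AMD3100 in uninjured larvae and for the interaction. Same-numbered replicates did not deviate together (18 correlations of -0.111 to 0.14), so the numbers were not taken as pairs; with a replicate block 353, 325, 0, 1 and 0 genes were called in the 5 comparisons, and 3, 3, 0, 0 and 0 of the 7.

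Signs turned among log2 values that were not called. With injury in DMSO, values ran over all settings from -0.101 to 0.099 for odc1, -0.265 to 0.41 for srm and -0.13 to 0.17 for smox, and in AMD3100 from -0.511 to 0.024 for odc1. The odc1 value for AMD3100 in injured larvae was 0.009 with upper-quartile factors, and the sms interaction was 0.017 with RLE factors, 0.018 with upper-quartile factors and 0.016 with DESeq2. Over left-out libraries, AMD3100 in injured larvae ranged from -0.312 to 0.151 for arg2, -0.276 to 0.26 for odc1 and -0.073 to 0.269 for sms. The values without injured AMD3100 replicate 1, the shallowest library, were 0.151 for arg2, 0.26 for odc1 and -0.073 for sms. AMD3100 in uninjured larvae ranged from -0.164 to 0.89 for arg2, -0.078 to 0.228 for amd1 and -0.118 to 0.264 for sms. The interaction ranged from -0.982 to 0.077 for arg2, -0.495 to 0.027 for odc1, -0.198 to 0.194 for sms and 0 to 0.262 for smox. Depth limits azin1b and srm most, which held 205 and 803 reads in all.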
